A study of Mus musculus with 35 samples.

Results

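The Nat8 family of N-acetyltransferases was described in RNA sequencing libraries from the mouse amygdala. The members were chosen by gene symbol, and all 9 of them, Nat8l, Nat8 and Nat8f1 to Nat8f7, were found among the 52636 genes of the count files. The study used female mice of the inbred strain C57BL/6J and of B6D2F1N, the hybrid offspring of a C57BL/6 and a DBA/2 parent strain. From postnatal day 77 the mice lived either in standard housing or in an enriched environment, in which they had access to a playground for 1 h per day, and all of them were trained, under mild food restriction, for a cognitive judgment bias test. Training began on postnatal day 70 and took 37 to 90 days, depending on how fast a mouse learned, and the brains were taken shortly after the test of 5 days, so that age differed between mice, and the labels do not give it for each mouse. Cells of the basolateral amygdala were collected with a laser capture microscope from an anterior and a posterior portion. In standard housing, the C57BL/6J groups held 4 anterior and 4 posterior libraries and the B6D2F1N groups 5 and 5, while in the enriched environment there were 2 anterior and 4 posterior libraries of C57BL/6J and 5 and 6 of B6D2F1N. These 35 libraries came from 19 mice, of which 16 had a library of each portion here, and a few further samples that the study sequenced were not analysed here.

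NAT8L joins an acetyl group to aspartate and so makes N-acetylaspartate, one of the most abundant metabolites of neurons. N-acetylaspartate is cleaved by aspartoacylase (Aspa) in oligodendrocytes, and it is also a building block of the neuropeptide N-acetylaspartylglutamate. NAT8, in contrast, is an enzyme of the endoplasmic reticulum that acetylates cysteine S-conjugates, the last step in the formation of mercapturates, which are best known from kidney and liver. The Nat8f genes, once named the camello-like genes, are close relatives of Nat8 that lie beside it as a cluster in the mouse genome.

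Between 16938534 and 27352623 reads were counted on genes per library. All values below are CPM, a count relative to the total of its library, scaled by the TMM method, and mice are named by strain, housing and a number given here. Both libraries of B6D2F1N standard mouse 1 had 0 counts of Xist, which the other 33 libraries of these female mice expressed. The Y chromosome genes Ddx3y, Eif2s3y, Kdm5d and Uty had too few counts to be tested in any comparison. The reason for the missing Xist counts was not tested, and results that use this mouse are also given without it. The second number in the sample titles, the meaning of which the labels do not give, ran from 24 to 35 in standard and from 5 to 15 in enriched C57BL/6J libraries, and within this strain it cannot be told apart from housing. The portions carry the names of the labels. In the methods the posterior portion was given the section range nearer to bregma, against the anatomical order, and which portion the labels mean was not tested. Among the markers of excitatory neurons, Slc17a7, Camk2a and Neurod6 were detected in all 35 libraries.

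Nat8l lies on its own on chromosome 5 (GRCm38, 33995984 to 34005916, plus strand). The other 8 members lie on the minus strand of chromosome 6, in the order Nat8f7, Nat8f3, Nat8f6, Nat8f5, Nat8, Nat8f2, Nat8f4 and Nat8f1, between positions 85706727 and 85915687. Nat8f4, a protein-coding gene of 4 exon blocks at 85899051 to 85904884, has Nat8f2 (85865422 to 85869158) as its nearest relative, with 84.7% identity between the coding sequences. Nat8f3, Nat8f6 and Nat8f7 shared 99.1 to 99.6% of their coding sequences. These similarities matter because reads of 72 bases that fit several genes equally well were not counted.

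Reads from Nat8f4 and Nat8f2 could be told apart over most, but not all, of their coding sequence. Of 604 coding windows of 72 bases, 121 differed by at most 2 bases between both genes and 16 were identical. The pair of stretches with the most differences is shown first, with the 14 differing bases in capitals, followed by an identical stretch. All are from the coding strand of GRCm38 and run 5′ to 3′. The first 2 lines are chr6:85901405-85901476 and chr6:85868244-85868315, and the last 2 are chr6:85901186-85901257 and chr6:85868025-85868096, all on the minus strand.
Nat8f4: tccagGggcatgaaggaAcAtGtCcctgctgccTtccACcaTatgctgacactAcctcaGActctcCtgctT
Nat8f2: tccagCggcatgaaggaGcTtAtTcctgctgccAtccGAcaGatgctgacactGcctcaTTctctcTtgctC
Nat8f4: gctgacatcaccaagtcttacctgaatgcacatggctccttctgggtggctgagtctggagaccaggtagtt
Nat8f2: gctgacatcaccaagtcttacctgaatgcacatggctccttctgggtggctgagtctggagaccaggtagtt

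The second group of relatives is harder to resolve. No window of 593 in the coding sequences of Nat8f3, Nat8f6 and Nat8f7 had more than 2 differing positions, and 356 had none. The stretch with the most differences is printed here for chr6:85761686-85761757 (Nat8f3), chr6:85809073-85809144 (Nat8f6) and chr6:85707764-85707835 (Nat8f7), all on the minus strand, with the 2 differing positions in capitals.
Nat8f3: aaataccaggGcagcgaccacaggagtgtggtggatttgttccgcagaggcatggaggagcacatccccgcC
Nat8f6: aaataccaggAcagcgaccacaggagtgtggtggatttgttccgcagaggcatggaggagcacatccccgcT
Nat8f7: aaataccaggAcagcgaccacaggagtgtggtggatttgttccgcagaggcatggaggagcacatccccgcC

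Over whole transcripts, the share of 72-base windows with a copy in another gene at 2 mismatches or fewer was 0% for Nat8l, 7.8% for Nat8f5 and 8.1% for Nat8. It was 32.4% for Nat8f4 and 32.3% for Nat8f2, which were each other's copies, and 59.1%, 79.9% and 94.9% for Nat8f3, Nat8f6 and Nat8f7. For Nat8f1 it was 57.7%, shared between Tprkb, which overlaps 478 exon bases of Nat8f1 on the opposite strand, and the pseudogene Nat8b-ps. Nat8f5 and Nat8f6 overlap by 135 exon bases on the same strand. The counts of Nat8f1, Nat8f2, Nat8f3, Nat8f4, Nat8f6 and Nat8f7 are therefore uncertain as to the part that came from, or was lost to, a copy, and the strand setting of the counting is not given in the sources used here.

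Relative to transcript length, Nat8f1 had the highest level of the family in the amygdala. In CPM per kilobase of exon, Nat8f1 reached 27.4 ± 5.10 in C57BL/6J (SD, n = 14 libraries) and 23.3 ± 8.29 in B6D2F1N (SD, n = 21). Nat8l, the N-acetylaspartate synthase, followed with 14.2 ± 5.33 and 13.3 ± 5.54, and it was lower than Nat8f1 per kilobase in 33 of the 35 libraries.

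Nat8 itself had 6.19 ± 2.33 CPM per kilobase in C57BL/6J and 4.54 ± 1.98 in B6D2F1N, and Nat8f5 had 5.41 ± 1.97 and 3.07 ± 1.51. In C57BL/6J, Nat8f4 was at 6.14 ± 1.72, among Nat8 and Nat8f5, but in B6D2F1N it was at 1.11 ± 0.757 per kilobase and below both of them. Neighbours in this order were not separated beyond their spread between Nat8, Nat8f5 and, in C57BL/6J, Nat8f4. Nat8 was above Nat8f5 per kilobase in 24 of the 35 libraries.

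The remaining members had lower levels. Nat8f3, which was detected in every C57BL/6J library with 11 to 68 counts, had 0.482 ± 0.205 CPM per kilobase in C57BL/6J and 0.240 ± 0.203 in B6D2F1N, and the means of Nat8f6, Nat8f2 and Nat8f7 were all at most 0.183 in either strain. The last 3 were close to the limit of detection. Nat8f2 had 0 counts in 6 of 14 C57BL/6J and 12 of 21 B6D2F1N libraries, Nat8f6 in 7 and 3, and Nat8f7 in 7 and 9. At these depths, a count of 0 allows for up to 3 counts, a limit that covers counting error only. With the same CPM divided by the length of windows without a copy, Nat8f1, Nat8l, Nat8, Nat8f5 and Nat8f4 kept places 1 to 5 over all libraries. Nat8f7, with 89 such windows, moved from place 9 to place 6. Reads from copied windows stayed in these CPM, so the division raises members with many copies. It cannot show how many reads came from a copy.

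**Figure D1:**
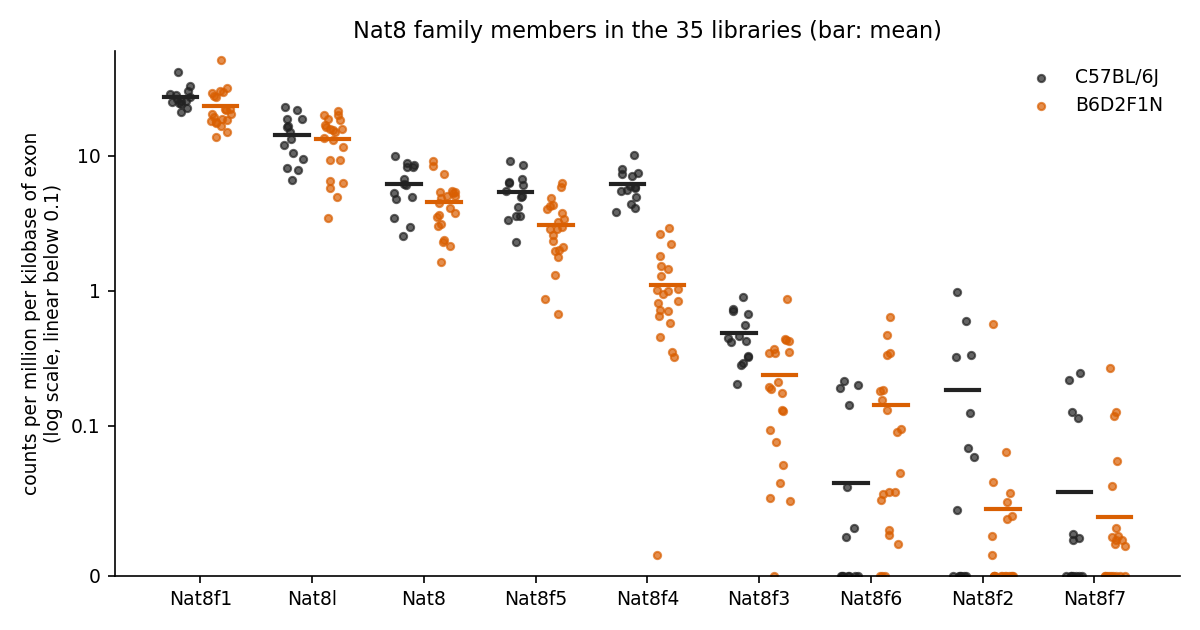
CPM per kilobase of exon (log axis, linear below 0.1) of the 9 members in every library, with C57BL/6J in black, B6D2F1N in orange and bars for the means. Nat8f1 and Nat8l stand highest in both strains, and Nat8f4 shows separate clouds for the strains, at means of 6.14 and 1.11.

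To see how the family differed by genetic background, the strains were compared within each housing and portion. Nat8f4 was lower in B6D2F1N mice everywhere it was measured. In the anterior amygdala of standard-housed mice, the 4 C57BL/6J libraries (mice 1 to 4) had 13.2, 19.0, 15.9 and 17.9 CPM, and the 5 B6D2F1N libraries had 2.62, 3.32, 4.65, 1.04 and 3.23 CPM. The groups did not overlap, and the level in B6D2F1N was 18.0% of that in C57BL/6J. How many of all genes were separated in this way was not counted, here or in the comparisons below. With edgeR's quasi-likelihood test, Nat8f4 fell by 2.46 on the log2 scale (SE 0.38, 95% interval -3.27 to -1.66, adjusted p = 0.0048), in a comparison in which 0.37% of 24305 genes passed an adjusted p of 0.05. Nat8f4 was 1 of 9 members tested that passed, and it was also the 1 member that DESeq2 called (adjusted p = 2.3e-08), where 1.2% of genes were. Without B6D2F1N standard mouse 1, its value was -2.41 (adjusted p = 0.015), and 1 fit over all 4 strain and housing groups of the portion gave -2.46 with an adjusted p of 0.29.

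In the posterior amygdala of standard-housed mice, Nat8f4 had 14.2, 22.8, 18.7 and 23.6 CPM in C57BL/6J and 1.45, 2.70, 2.32, 2.26 and 8.43 CPM in B6D2F1N mice 1 to 5. Mouse 5 stood above the other B6D2F1N mice, yet below every C57BL/6J mouse. Nat8f4 fell by 2.51 (SE 0.46, 95% interval -3.49 to -1.54, adjusted p = 0.024 with edgeR), and it was again the single member past the threshold among 9 tested, where 0.373% of all genes tested were called. DESeq2 called it too (adjusted p = 1.7e-05), with 1.82% of genes. This call depended on single mice, since the adjusted p was 0.10, 0.063 and 0.11 without C57BL/6J mouse 2, 3 or 4 and 0.072, 0.076 and 0.066 without B6D2F1N mouse 2, 3 or 4, with values between -2.54 and -2.39. Without B6D2F1N standard mouse 1 the value was -2.32 (adjusted p = 0.034), and without mouse 5 it reached -3.16.

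In the enriched environment, the difference in the posterior amygdala was of the same order. C57BL/6J mice 1 to 4 had 17.6, 19.2, 32.7 and 24.1 CPM of Nat8f4, and the 6 B6D2F1N mice had a lowest level of 1.12, a median of 3.16 and a highest level of 5.81 CPM. The groups were separated by a gap, and B6D2F1N mice had 14.4% of the C57BL/6J level. Nat8f4 fell by 2.78 (SE 0.39, 95% interval -3.60 to -1.95, adjusted p = 0.0019 with edgeR), as 1 of 8 members tested and with 0.394% of all genes called, and the call held in each of the 10 fits that left out 1 mouse. DESeq2 called Nat8f4 with an adjusted p of 2.0e-09 and 1.53% of genes.

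In the anterior amygdala of enriched mice, for which 2 C57BL/6J libraries were analysed here, Nat8f4 had 25.8 and 12.4 CPM in them and 1.87, 0.0445, 4.17, 7.13 and 9.47 CPM in B6D2F1N mice 1, 2, 3, 4 and 6. The value of mouse 2 rested on a single count. These groups did not overlap either, which says little with 2 libraries in a group. The log2 fold change of -2.05 (SE 1.00, 95% interval -4.23 to 0.13) had an adjusted p of 1.00 with edgeR, and none of the 9 members passed where 0.0639% of all genes did, nor with DESeq2, which called 0.692% of genes. With both housing groups in 1 fit and housing as a term, the anterior value was -2.31 (adjusted p = 0.035). Over all libraries, Nat8f4 ranged from 12.4 to 32.7 CPM in C57BL/6J (n = 14) and from 0.0445 to 9.47 CPM in B6D2F1N (n = 21). Anterior and posterior libraries share mice, so these 4 comparisons are not independent of each other. In such bulk samples, fewer cells that express a gene and less RNA per cell cannot be told apart. Reads of the hybrid mice were also aligned to GRCm38, and 32.4% of Nat8f4 windows have a near copy. Whether reads of the DBA/2 copy of the gene failed to align or fitted several genes was not tested.

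**Figure D2:**
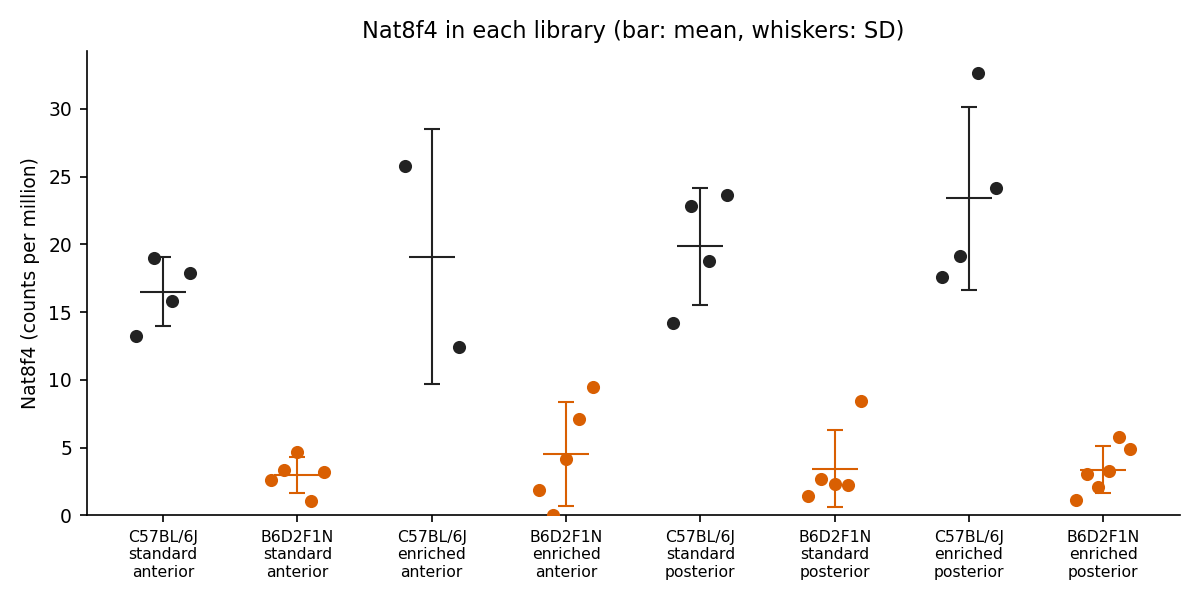
Nat8f4 CPM in each library of the 8 groups of strain, housing and portion, with 1 point per library, a bar for the mean and whiskers for the SD. Every C57BL/6J point lies at or above 12.4 CPM and every B6D2F1N point at or below 9.47 CPM.

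Nat8f2, the nearest relative, was not higher in the strain in which Nat8f4 was lower. It had 189 counts in total over the 14 C57BL/6J libraries and 64 over the 21 B6D2F1N libraries. Its highest levels were 3.22 CPM in the posterior library of C57BL/6J enriched mouse 3 and 1.96 and 1.88 CPM in the anterior libraries of C57BL/6J and B6D2F1N standard mouse 3. The fitted log2 fold changes of Nat8f2 lay between -3.19 and -0.58 over the 4 comparisons, and none passed. With the counts of Nat8f2 and Nat8f4 summed, the values were -2.34 and -2.51 in standard and -2.07 and -2.79 in enriched mice, in anterior and posterior amygdala respectively, with adjusted p-values of 0.017, 0.024, 1.00 and 0.0017. The summed level in B6D2F1N mice was 14.2 to 23.4% of that in C57BL/6J mice.

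None of the other members passed in any of the 4 comparisons of strains. Nat8f5 had log2 fold changes of -0.94, -0.95, -0.94 and -0.45 in standard anterior, standard posterior, enriched anterior and enriched posterior amygdala, with adjusted p-values of at least 0.475. Its groups did not overlap in standard posterior amygdala, where the lowest C57BL/6J library had 3.30 and the highest B6D2F1N library 3.16 CPM. Nat8f3 had values of -0.56, -1.97, 0.07 and -1.46 in the same order, with 0.484 as its smallest adjusted p-value over these comparisons (-1.97, 95% interval -3.97 to 0.03). With the near-identical Nat8f6 and Nat8f7 added to it, the summed level in B6D2F1N was 68.8, 34.6, 120 and 52.8% of that in C57BL/6J. Nat8f6 and Nat8f7 had at most 46 and 24 counts in all libraries of a comparison, and Nat8f7, with 7 counts, was not tested in enriched posterior amygdala.

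Nat8 and Nat8f1 had negative values in 3 of the 4 comparisons and positive ones in enriched posterior amygdala. Nat8 had log2 fold changes of -0.95, -0.68, -0.27 and 0.13 in the order used above, the first with a 95% interval of -1.74 to -0.16 and an adjusted p of 0.54 with edgeR. Nat8f1 had -0.36, -0.51, -0.26 and 0.23, the second with an SE of 0.23, a 95% interval that ended at -0.03 and an adjusted p of 0.475 with edgeR. At an unadjusted p under 0.05 there were 3 of 9 members in standard anterior amygdala (Nat8f4, Nat8 and Nat8f7), 3 of 9 in standard posterior (Nat8f4, Nat8f1 and Nat8f5), 0 of 9 in enriched anterior and 3 of 8 in enriched posterior amygdala (Nat8f4, Nat8f2 and Nat8l). Among all genes tested there were 2186 of 24305, 2604 of 25171, 1016 of 23459 and 2336 of 25640 in this order. For Nat8l, the values were 0.11, 0.52, -0.25 and -0.79, the last with a 95% interval of -1.57 to -0.0007 and an adjusted p of 0.55 with edgeR. In this last comparison all 5 oligodendrocyte markers had negative log2 fold changes, with a median of -1.17, and so had all 4 excitatory neuron markers, with a median of -0.95. The summed level of the former was 17528 to 27234 CPM in C57BL/6J and 6610 to 15831 CPM in B6D2F1N, and that of the latter 1270 to 5352 and 915 to 2256 CPM. The part of these cells in the value of Nat8l was not tested. The median log2 fold change of the members tested was -0.58, -0.68, -0.26 and -0.62 in the 4 comparisons, beside 0.02, 0.05, 0.03 and 0.03 over all genes tested.

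**Figure D3:**
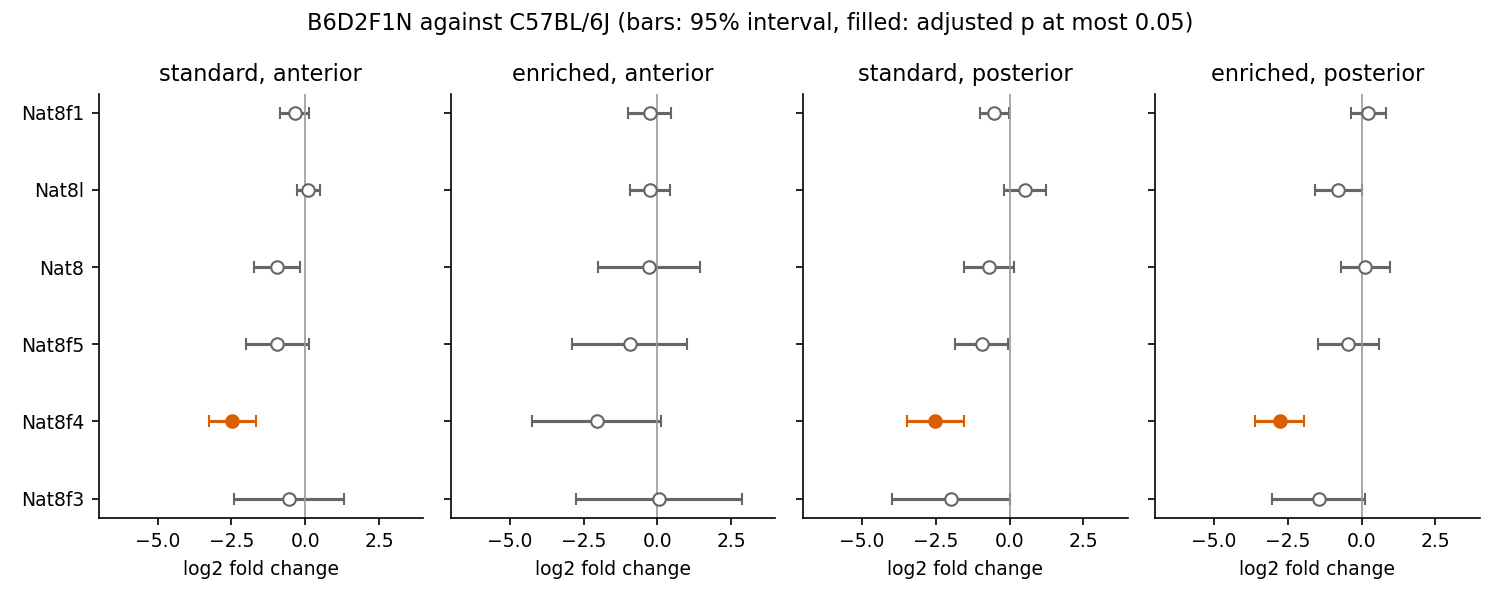
Log2 fold changes of B6D2F1N against C57BL/6J with 95% intervals for the 6 members with the highest level per kilobase, in each housing and portion, where filled orange points mark an adjusted p of at most 0.05. Nat8f4 lies at -2.46, -2.05, -2.51 and -2.78 and is filled in 3 of the 4 panels.

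The fall of Nat8f4 was then set beside the genes around it. Within 0.5 Mb of Nat8f4 lie 38 genes that are not members, of which 25 or 26 were tested in each comparison of strains. With edgeR 0 of them passed, beside 0.0639 to 0.394% of all genes tested, and DESeq2 called 0, beside 0.692 to 1.82%. At such shares, 0 calls among so few genes does not set this region apart from other genes. Of the 101 tests in all, 4 had an unadjusted p under 0.05. Over all genes these were 2186 of 24305 in standard anterior and 2604 of 25171 in standard posterior amygdala. In enriched mice they were 1016 of 23459 and 2336 of 25640. The median log2 fold changes of the neighbours were 0.14 and -0.08 in standard and -0.07 and 0.05 in enriched mice, for anterior and posterior amygdala. The fitted values farthest from 0 were those of Alms1-ps1, a pseudogene with 30 counts in all in standard anterior libraries, and of Gm43917, with 143 counts in enriched anterior libraries, and neither passed (adjusted p = 0.53 and 1.00). Around Nat8l, 27 to 29 of 38 genes were tested and 0 passed with edgeR, beside the same shares of all genes. At an unadjusted p under 0.05 there were 9 of 111 tests, and DESeq2 called 1 gene, Gm1673.

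**Figure D4:**
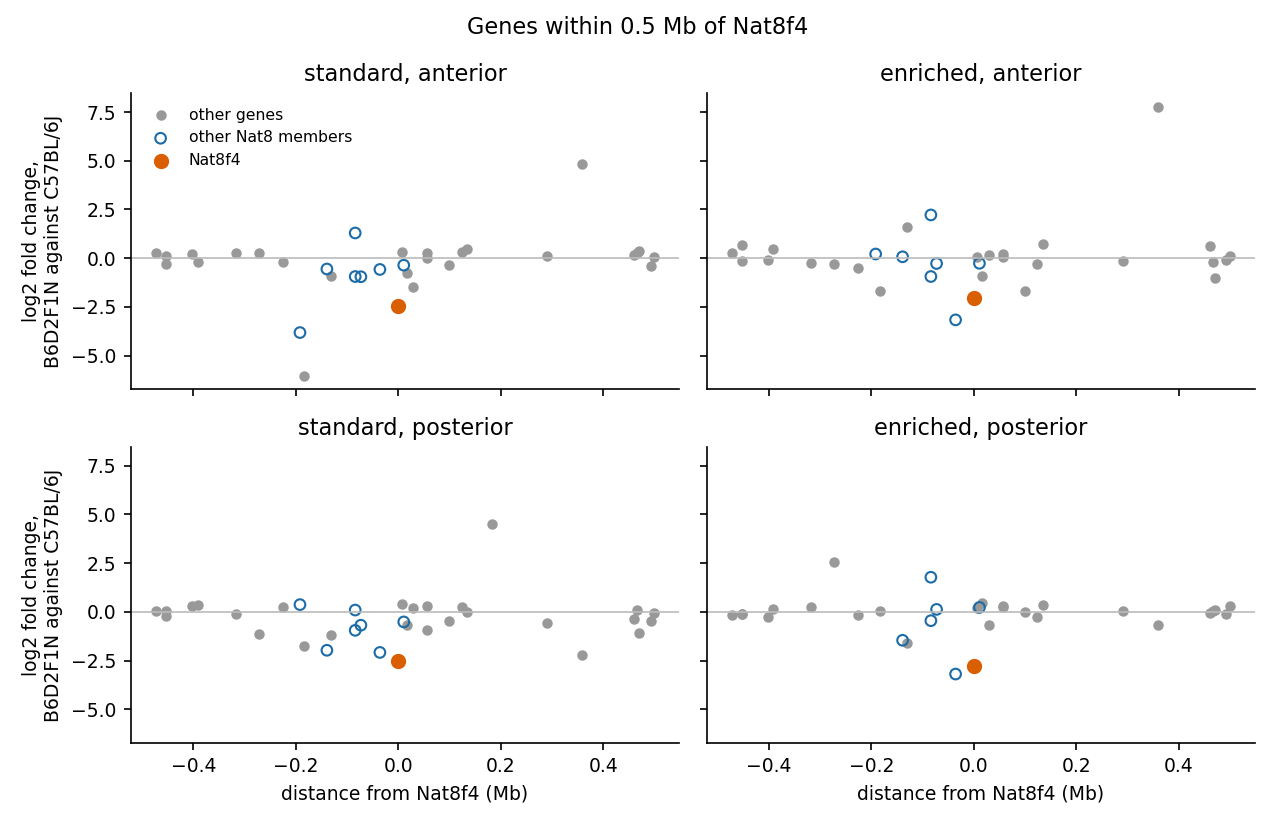
Log2 fold change of B6D2F1N against C57BL/6J for each gene tested within 0.5 Mb of Nat8f4, by its distance from Nat8f4 in Mb, with Nat8f4 in orange, the other Nat8 members as open blue circles and other genes in grey. Most grey points lie near 0, and none of the grey or blue points passed the threshold.

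The genes whose levels resembled that of Nat8f4 most over the 35 libraries, by Pearson's r of log2 CPM among 16021 genes, were A330076H08Rik (r = 0.80), Tmem147os (0.78), Rpe (0.78), Tmem267 (0.78) and Rec8 (0.76). These points share strain, housing and portion, and the correlation is given as a description. Between the strains, A330076H08Rik had log2 fold changes of -2.34, -2.71, -3.05 and -2.17 and Tmem267 had -1.71, -1.62, -1.51 and -1.96 in the order used above. Over the same libraries, Nat8l was most like Map1a, which encodes a neuronal microtubule-associated protein (r = 0.91), Git1 (0.90), Rasl10b (0.90), the elongation factor gene Eef2 (0.89) and Tmcc2 (0.88).

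Between the portions of the amygdala, Nat8l was the member that differed. It was lower in the posterior library of all 6 C57BL/6J mice with both portions. From anterior to posterior, standard mice 1 to 4 went from 110 to 52.1, from 88.8 to 54.5, from 80.0 to 43.8 and from 101 to 62.6 CPM, and enriched mice 1 and 3 from 154 to 124 and from 125 to 70.3 CPM. With the mouse as a block, Nat8l fell by 0.74 on the log2 scale (SE 0.15, 95% interval -1.07 to -0.42, adjusted p = 0.0072 with edgeR). It was 1 of 9 members called, where 3.64% of 25751 genes were, and DESeq2 called it with an adjusted p of 0.00016 and 8.64% of genes. Without the block, the value was -0.70 with an adjusted p of 0.13, and without C57BL/6J standard mouse 1 it was -0.66 with an adjusted p of 0.061.

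In B6D2F1N mice, Nat8l was lower in the posterior library of 8 of 10 mice. Its lowest, median and highest levels were 61.8, 109 and 143 CPM over the 10 anterior libraries and 23.2, 62.2 and 124 CPM over the 11 posterior libraries, which overlapped. Standard mice 2 and 3 went the other way, from 103 to 109 and from 90.6 to 124 CPM. The log2 fold change of -0.73 (SE 0.22, 95% interval -1.20 to -0.26) did not pass with edgeR (adjusted p = 0.080, 0 of 9 members called, 4.01% of all genes called), but passed with DESeq2 (-0.72, adjusted p = 0.029), which called 10.4% of the genes it tested. Without standard mouse 3 it was -0.84 (adjusted p = 0.032 with edgeR), and without standard mouse 1, the mouse with 0 counts of Xist, -0.68 (adjusted p = 0.17). The difference of this effect between the strains was 0.008 (95% interval -0.62 to 0.64).

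Cell type markers also moved between the portions. With edgeR, Slc17a7 and Neurod6, of 4 markers of excitatory neurons, were lower in the posterior portion of both strains, and their summed level ranged from 1745 to 4391 CPM in anterior and from 915 to 5352 CPM in posterior libraries. All 3 choroid plexus markers (Ttr, Kl and Folr1) were higher in the posterior portion of both strains, with sums of 3.61 to 920.2 and 115 to 14081 CPM, and Folr1 had 0 counts in 10 of the 35 libraries. Higher in the posterior portion were also 2 of 4 astrocyte markers in C57BL/6J (Gja1 and Slc1a3), the fibroblast marker Dcn in both strains, and 1 of 3 ependymal markers in C57BL/6J and 2 of 3 in B6D2F1N, while none of the markers of oligodendrocytes, inhibitory neurons, microglia or endothelial cells passed. DESeq2 called the same genes and, beyond them, the ependymal marker Foxj1 in both strains, the fibroblast marker Lum in C57BL/6J, and the microglia marker Cx3cr1 and the endothelial marker Flt1 in B6D2F1N, the last pair with negative values. Between the strains, no marker of these 9 cell types passed with edgeR, while DESeq2 called Kl, Cldn5, Mag, Mbp and Mobp in at least 1 comparison. The part of these cells in the difference of Nat8l was not tested.

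**Figure D5:**
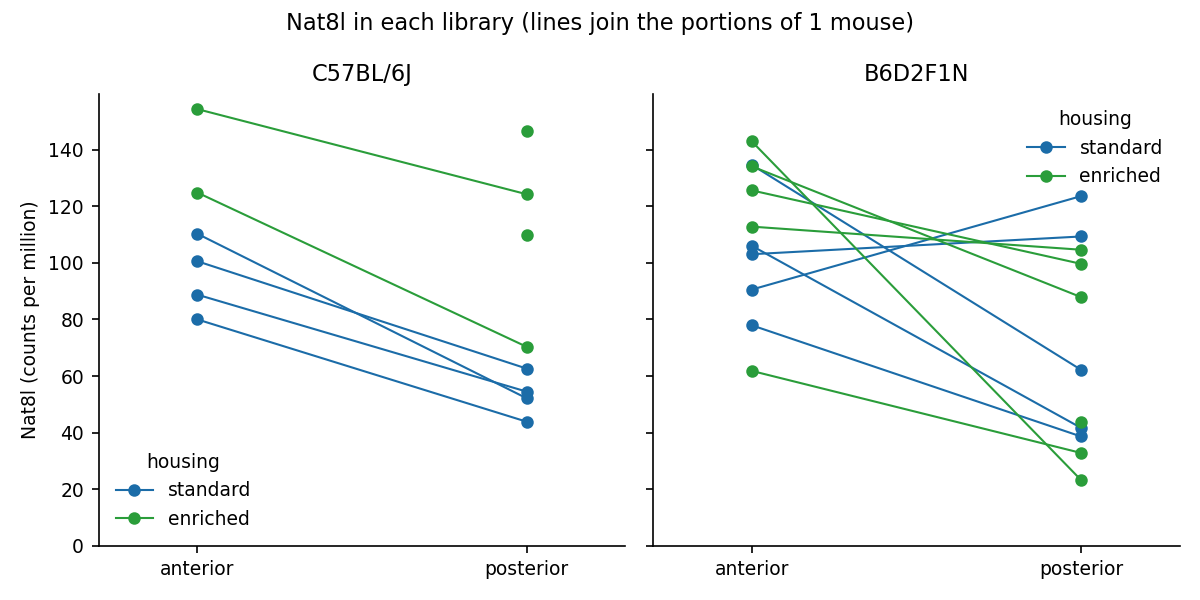
Nat8l CPM in the anterior and posterior amygdala of each mouse, with C57BL/6J on the left and B6D2F1N on the right, standard housing in blue, the enriched environment in green and lines joining the libraries of 1 mouse. All 6 lines of C57BL/6J and 8 of 10 lines of B6D2F1N fall towards the posterior portion.

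The other members did not pass between the portions in either strain. Nat8f4 had log2 fold changes of 0.31 in C57BL/6J (95% interval -0.22 to 0.83) and -0.08 in B6D2F1N (-1.28 to 1.11), and Nat8f1 had 0.11 and 0.22. Nat8f3 was higher in the posterior portion of 6 of 6 C57BL/6J mice and of 5 of 10 B6D2F1N mice, with log2 fold changes of 0.52 and -0.68 and adjusted p-values of 0.84 and 0.78 with edgeR. Nat8, with -0.26 and 0.28, and Nat8f5, with 0.26 and 0.42, had adjusted p-values of at least 0.727. The 3 members with few counts had 186 (Nat8f2), 25 (Nat8f6) and 28 counts (Nat8f7) in the C57BL/6J pairs and 60, 103 and 33 in the B6D2F1N pairs, with adjusted p-values of at least 0.66. Over all members tested the median was 0.26 and 0.28, beside 0.01 and 0.15 over all genes.

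To study the housing environment, enriched mice were compared with standard mice of the same strain and portion. Nat8l had the smallest p-value of all members in C57BL/6J. In the posterior amygdala of C57BL/6J, standard mice 1 to 4 had 52.1, 54.5, 43.8 and 62.6 CPM and enriched mice 1 to 4 had 124, 147, 70.3 and 110 CPM, without overlap. The log2 fold change was 1.08 (SE 0.24, 95% interval 0.56 to 1.60). It did not pass with edgeR (adjusted p = 0.18, 0 of 8 members called, 0.0163% of all genes called), but did with DESeq2 (adjusted p = 0.0063), which called 1.56% of genes. Leaving out enriched mouse 3, the lowest of the enriched mice, gave 1.26 with an adjusted p of 0.015 in edgeR.

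The sample title number and the markers of several cell types moved with this difference. With the title number as a term, an alternative chosen after the data were seen, the value was 1.31 with an adjusted p of 0.71. All 5 oligodendrocyte markers had positive log2 fold changes, with a median of 1.53. One of them passed, Mbp (1.97, adjusted p = 0.037 with edgeR), which encodes a main protein of myelin. Their summed level was 7790 to 12349 CPM in standard and 17528 to 27234 CPM in enriched C57BL/6J posterior libraries. In B6D2F1N posterior libraries of either housing, Nat8l was at 87.9 to 124 CPM in those with title numbers 4 to 13, at 23.2 to 62.2 CPM in those with numbers 17 to 31, and at 105 CPM in number 37. All 4 excitatory neuron markers also had positive log2 fold changes, with a median of 0.94 and summed levels of 997 to 2444 CPM in standard and 1270 to 5352 CPM in enriched libraries. So did the 3 ependymal markers, with a median of 2.39 and sums of 9.20 to 27.9 and 22.5 to 153 CPM, and the 3 markers of inhibitory neurons, with a median of 0.29. None of these passed with edgeR, with an unadjusted p under 0.05 for 2, 3 and 1 of them, beside 2515 of 24526 genes tested. The DESeq2 calls included Foxj1 and Slc32a1, and Mag and Mobp beside Mbp. The part of these cells in the difference of Nat8l was not tested.

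In the anterior amygdala of C57BL/6J, Nat8l was at 124.9 and 154 CPM in the 2 enriched mice and at 80.0 to 110 CPM in the standard mice, with a log2 fold change of 0.54 (95% interval 0.05 to 1.03, adjusted p = 0.79). B6D2F1N mice had 0.17 in the anterior (95% interval -0.31 to 0.65) and -0.22 in the posterior amygdala (95% interval -1.09 to 0.64). The latter turned to 0.03 without standard mouse 3 and was -0.31 without standard mouse 1, while the former was 0.29 without standard mouse 1. The interaction of strain and housing in the posterior amygdala was -1.29 for Nat8l (95% interval -2.41 to -0.17, unadjusted p = 0.025, adjusted p = 0.53 with edgeR), which was not called. In the same interaction all 4 excitatory neuron markers had negative values, with a median of -1.91, as did all 5 oligodendrocyte markers, with a median of -1.27, and all 3 ependymal markers, with a median of -1.66, and their part in the value of Nat8l was not tested.

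Nat8f4 had fitted values nearer to 0 for housing than for strain. Its log2 fold changes were 0.20 and 0.23 in C57BL/6J and 0.60 and -0.04 in B6D2F1N, for anterior and posterior amygdala. The 95% intervals all included 0, with -0.56 to 0.96, -0.35 to 0.81, -1.16 to 2.36 and -1.17 to 1.09 in this order. In B6D2F1N anterior amygdala the interval is too wide to show that the difference is small. In C57BL/6J anterior, B6D2F1N anterior and B6D2F1N posterior amygdala, edgeR called 0% of genes for housing. An unadjusted p below 0.05 was reached by 1417, 1553 and 1716 genes, and DESeq2 called 100, 8 and 13, or 0.531, 0.0335 and 0.0549% of those it tested. Accordingly, 0 of 8, 0 of 9 and 0 of 9 members were called there. At an unadjusted p under 0.05 there was 1 member, Nat8l, in C57BL/6J anterior amygdala and 0 in the other 2 comparisons, and DESeq2 called 0 members in each. Nat8 had 0.64 in B6D2F1N posterior amygdala (95% interval -0.08 to 1.36), where B6D2F1N enriched mouse 2 had 10.2 CPM and the other enriched mice 4.99 to 6.19 CPM. In the order C57BL/6J anterior, C57BL/6J posterior, B6D2F1N anterior and B6D2F1N posterior, Nat8 had -0.44, -0.15, 0.23 and 0.64, Nat8f1 had -0.078, -0.41, 0.0056 and 0.32, Nat8f3 had 0.031, -0.013, 0.66 and 0.50, and Nat8f5 had -0.37, 0.066, -0.37 and 0.55. The counts behind Nat8f2 were 72, 117, 43 and 21. For Nat8f6 they were 8, 23, 45 and 59, and for Nat8f7 22, 6, 19 and 14, where 8 and 6 counts were too few to be tested. Except for Nat8l, the adjusted p-values of the members were at least 0.534 with edgeR.

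Interactions gave 0 called members of 9 in each of 3 models, where edgeR called 0% of all genes. Unadjusted p-values under 0.05 were found for 871 genes for portion by strain, and for 1576 (anterior) and 2335 (posterior) genes for strain by housing, while DESeq2 called 6, 11 and 37, or 0.0204, 0.0563 and 0.162%. Among members, only Nat8l for strain by housing in the posterior amygdala had an unadjusted p under 0.05, and DESeq2 called 0 members. For Nat8f4, the interaction of strain and housing was 0.39 in the anterior (95% interval -1.86 to 2.64) and -0.26 in the posterior amygdala (95% interval -1.54 to 1.02), and that of portion and strain was -0.40 (95% interval -1.69 to 0.88). For strain by housing in the anterior and posterior amygdala and for portion by strain, Nat8 had 0.66, 0.81 and 0.53, Nat8f1 had 0.075, 0.75 and 0.11, Nat8f3 had 0.62, 0.51 and -1.20, and Nat8f5 had -0.0064, 0.50 and 0.16. Nat8l had -0.38 for strain by housing in the anterior amygdala. Nat8f2, Nat8f6 and Nat8f7 had 20 to 246 counts in these models, and none of the 3 had an unadjusted p under 0.05.

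Mice labelled as optimists and pessimists, from their choices in the judgment bias test, were compared with terms for strain and housing, with 4 optimists in each portion and 4 anterior and 5 posterior pessimist libraries. None of 9 members tested in the anterior and none of 8 in the posterior amygdala passed with edgeR, where 0.00414% and 0.00396% of genes did. At an unadjusted p under 0.05 there were 0 members, beside 997 of 24134 and 885 of 25277 genes tested. DESeq2 called 0 members, beside 0.134% and 0.0914% of genes. Nat8l had log2 fold changes of -0.58 (95% interval -1.46 to 0.29) and -0.02 (-1.51 to 1.47), and Nat8f4 had 0.003 (-2.85 to 2.86) and 1.47 (-0.49 to 3.42). Nat8 had 0.18 and -0.48, Nat8f1 had -0.54 and -0.51, Nat8f3 had 2.31 and 0.92, and Nat8f5 had 0.73 and 0.11, with adjusted p-values of at least 0.876 with edgeR. Nat8f2 and Nat8f6 rested on 20 to 60 counts, and Nat8f7 on 17 in the anterior and on 9, too few to be tested, in the posterior amygdala. All optimists lived in standard housing, and B6D2F1N standard mouse 1, the mouse with 0 counts of Xist, was the only pessimist there. With housing as a term, the values above therefore rest on this 1 pessimist, and without it the effect could not be estimated.

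The genes around Nat8l in N-acetylaspartate metabolism were then examined with a list of 18 genes for its synthesis, cleavage, transport and receptor. In the comparisons of strains, housing and bias and in the interactions, 0 of the 17 or 18 genes tested passed in any with edgeR, and DESeq2 called 0. Over all genes, edgeR called 0 to 0.394% and DESeq2 0.0204 to 1.82% there, so that 0 of so few genes is near these shares. At an unadjusted p under 0.05 there were 5 of 72 tests for strain, 4 of 71 for housing, 1 of 35 for bias and 2 of 54 for the interactions. Over all genes these ranged from 871 of 29437 (portion by strain) to 2604 of 25171 (strain, standard posterior). Between the portions of C57BL/6J, 2 of 17 genes were higher and 1 was lower in the posterior amygdala with edgeR, where 3.64% of all genes passed. DESeq2, with 8.64% of all genes, called 4 of the list, these 3 and Acss1 (0.78, adjusted p = 0.034). Of the list, 7 genes had an unadjusted p under 0.05, beside 3487 of 25751 over all genes. Folh1, which encodes the peptidase that cleaves N-acetylaspartylglutamate, rose by 1.11 (SE 0.25, adjusted p = 0.013). Rimklb, a synthetase of that dipeptide, rose by 1.20 (SE 0.29, adjusted p = 0.026), and Grm3, the metabotropic glutamate receptor to which the dipeptide binds, fell by 0.75 (SE 0.18, adjusted p = 0.020).

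In B6D2F1N mice, Grm3 was the single gene of 18 that passed between the portions with edgeR, where 4.01% of all genes did, and it fell by 1.09 (SE 0.13, adjusted p = 5.7e-05). Folh1 and Rimklb had 0.67 and 0.67 with adjusted p-values of 0.067 and 0.11 in edgeR. DESeq2, with 10.4% of all genes, called 4 of the list, Grm3, Folh1, Rimklb and Got1 (-0.42, adjusted p = 0.022). Of the list, 7 genes had an unadjusted p under 0.05, beside 4312 of 27761 over all genes. Aspa, the aspartoacylase gene, had -0.43 in C57BL/6J (SE 0.20, adjusted p = 0.36) and -0.13 in B6D2F1N (SE 0.36, adjusted p = 0.91). Over the list, the median log2 fold change was -0.17 and -0.15, beside 0.01 and 0.15 over all genes.

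A second list of 16 genes covered the steps towards mercapturates, such as glutathione transferases and gamma-glutamyltransferases, and acetylation in the endoplasmic reticulum. Like the first list, it had 0 genes past the threshold for strain, housing, bias or the interactions, with 13 to 16 genes tested, and 0 with DESeq2. An unadjusted p below 0.05 was found in 5 of 60, 4 of 60, 2 of 30 and 2 of 48 tests in that order. These counts stand beside the same shares of all genes as those of the first list, and 0 of so few genes is near them. Between the portions of C57BL/6J, 3 of 14 genes passed with edgeR, beside 3.64% of all genes. Gsta4 (0.85, adjusted p = 0.0078) and Mgst1 (0.85, adjusted p = 0.038), both glutathione transferases, were higher in the posterior amygdala, and Mgst3 was lower (-0.93, adjusted p = 0.0017). In B6D2F1N, 1 of 16 genes passed with edgeR, beside 4.01% of all genes, Mgst1, with 1.13 (adjusted p = 0.0014). DESeq2 called the same genes and Gstm1 in both strains, or 4 and 2 of the list. Of the list, 4 and 6 genes had an unadjusted p under 0.05, beside 3487 of 25751 and 4312 of 27761 over all genes. The medians of the list were -0.06 and -0.10.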

How the data were processed

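The deposited values are read counts per Ensembl gene for 35 libraries of laser-captured mouse amygdala, which the authors did not normalize. According to the methods and the submitters' processing notes, single reads of 72 bases were trimmed (Trimmomatic 0.38), aligned to GRCm38 with HISAT2 2.1.0 and counted with HTSeq 0.11.2, also for the hybrid strain. Reads without a unique alignment (6.23 to 10.9%), without a gene (13.7 to 26.4%) or with several genes (3.06 to 3.74%) stayed outside the gene counts. The annotation release of the counting is not given in the sources used here.

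Symbols and positions came from GENCODE M21, where 52489 of 52636 genes were found. Genes that reached 10 counts when summed over the libraries compared were tested with edgeR 4.0.16 (R 4.3.3) by the quasi-likelihood F test after TMM scaling, two-sided, with Benjamini-Hochberg adjustment over all genes tested, and the threshold was 0.05. SE is the log2 fold change divided by the square root of F. The log2 CPM used for correlations had a prior count of 2, which did not enter the fits. Mice were grouped by their labels, which say only that they are separate mice. According to the methods, mice of the same strain shared cages, and the playgrounds were connected to whole cages. The labels do not name the cage, so mice of a cage were treated as independent. The p-values and intervals for strain and housing do not account for differences between cages. The mouse label pairs the portions. Deviations of both portions of a mouse from their group means had a median correlation over 16285 genes of 0.041 (-0.095 to 0.217, 16 mice). For different mice of a group it was -0.014 (-0.28 to 0.266, 63 pairs). The latter range contains the former, so these correlations cannot decide whether the portions of a mouse are alike. DESeq2 1.42.0, the study's tool, and other scalings, filters, terms and left-out mice were alternatives. Copies were sought with bwa 0.7.19 over windows of 72 bases, and coding sequences were compared with Biopython. For some of the comparisons, the fits were also run on simulated counts, the outcome of which is not given here. These counts held no effect shared by the portions of a mouse. Only genes with at least 10 counts per library on average were changed. The simulation therefore tests neither the pairing nor the members with few counts. The members, gene lists and tests were chosen with earlier results of these data known. All 9 members are named in every comparison, those with few counts by their counts, and genes of the lists where they passed. Protein sequences were not used here.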

Additional observations from a re-analysis of the deposited data

Results flagged for a closer look

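Of 63 groups of 4 to 6 libraries of a member, 12 held 1 library far from the others, where chance alone gives about 1 in 20 groups, and groups in which nearly all libraries are at 0 counts are marked by any single count. The value of Nat8f4 in the posterior amygdala of B6D2F1N standard mouse 5, 8.43 CPM, stood above 1.45 to 2.70 CPM in the other 4 mice. Nat8 was at 10.2 CPM in the posterior amygdala of B6D2F1N enriched mouse 2, against 4.99 to 6.19 CPM in the others of its group.

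For Nat8f2, 4 libraries were marked. In the anterior amygdala these were C57BL/6J standard mouse 3 with 1.96 CPM (others at most 0.281), B6D2F1N standard mouse 3 with 1.88 CPM and B6D2F1N enriched mouse 6 with 0.272 CPM, where the others had 0 counts. In the posterior amygdala C57BL/6J enriched mouse 3 had 3.22 CPM, from 75 counts, and the others had at most 0.261.

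The remaining 6 libraries rested on 1 to 19 counts. Nat8f6 was at 0.340 CPM in C57BL/6J standard mouse 1 and at 1.09 CPM in B6D2F1N enriched mouse 4, both in the anterior amygdala. Nat8f7 was at 0.0486 CPM in the anterior library of B6D2F1N standard mouse 1, and in posterior libraries at 0.207 CPM in C57BL/6J standard mouse 1, at 0.0429 CPM in C57BL/6J enriched mouse 3 and at 0.214 CPM in B6D2F1N standard mouse 4.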

How the results depend on the processing

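Nat8f4 was lower in B6D2F1N mice in all 4 comparisons of strains under every alternative run, with log2 fold changes between -3.37 and -1.41. Leaving out 1 mouse gave 0 to 1 members called for standard posterior amygdala, and 1 in each fit for standard anterior and enriched posterior amygdala. In standard anterior amygdala 0 members were called with 1 fit over the 4 strain and housing groups, in standard posterior amygdala 0 with the sample title number as a term (chosen after the data were seen, -2.20, adjusted p = 0.070), and in enriched anterior amygdala 1, Nat8f4, with both housing groups in 1 fit. Summing Nat8f2 with Nat8f4, or Nat8f3 with Nat8f6 and Nat8f7, changed no call. Nat8f2 added 253 counts to 7548 of Nat8f4 over all libraries, so this sum could change little. Reads that fit several genes equally well are missing from both sums.

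Between the portions of C57BL/6J, 0 members were called without the replicate block and 0 with all libraries and no mouse term (Nat8l -0.70 and -0.39, adjusted p = 0.13 and 0.51), and leaving out 1 mouse gave 0 to 1. In B6D2F1N, 1 member, Nat8l, was called with DESeq2 and 1 with a minimum of 1 count, and leaving out 1 mouse gave 0 to 1, while the fit without the block called 0. Between housing conditions in C57BL/6J posterior amygdala, 1 member, Nat8l, was called with DESeq2 and 1 with a minimum of 1 count, and leaving out 1 mouse gave 0 to 1. Nat8l values that changed sign were those of housing in B6D2F1N posterior amygdala (-0.41 to 0.032 over 11 fits without 1 mouse) and of the interaction of portion and strain (-0.12 to 0.20 over 16). No other count of members called changed, and the cause of these changes was not tested. Over all genes, DESeq2 called 1535 and 1994 genes between the portions (edgeR 937 and 1112), 254, 392, 137 and 342 between strains in standard anterior, standard posterior, enriched anterior and enriched posterior amygdala (90, 94, 15 and 101), 319 for housing in C57BL/6J posterior amygdala (4), and 21 and 19 for bias (1 and 1). Without the block 706 in place of 937 genes were called between the portions of C57BL/6J and 1172 in place of 1112 in B6D2F1N. With the whole CPM divided by the length of windows without a copy, which raises members with many copies, Nat8f3, Nat8f6 and Nat8f2 took places 7, 8 and 9. With 2 to 6 libraries a group, members with few counts had intervals several log2 units wide, and their differences were not detectable at this depth.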
